A study of Mus musculus with 2 samples.

Results

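The regions described here are 147 small squares of 1 ovary section from an old mouse, selected because Abcb1b, Col3a1 and Igfbp7 together took a large share of their counts. They were found among 884 squares of that section that held enough counts, and 2190 such squares in the 2 sections of the series. The beads of the section were placed on a grid of squares (bins) with sides of 70 position units, and bins with at least 500 counts were kept. The 20% of kept bins with the highest share of Adamts1, a secreted protease of ovulating follicles, were left out, as were the 15% with the highest summed share of the surface epithelium genes Lgals7, Krt19, Upk1b and Epcam. Those steps removed 177 and 133 bins, 15 of them by both, and left 589 ranked bins. The members are the 25% of ranked bins with the highest summed share of the 3 rule genes, and the other 442 ranked bins are the nearest comparison. Those values chose the members, so they are given below as a description, and nothing rests on them.

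Slide-seq lays a thin tissue section on a surface of barcoded beads whose positions are known, so that each transcript caught is tied to a place. A bead or bin is a small area that can hold parts of several cells of different types. The series holds 1 section per age analysed here, from female C57BL6/J mice of 2 months (young, replicate 3) and about 14 months (old, replicate 1), with no treatment named. Per the labels' protocol, sections were taken where several oocytes lay in 1 plane. With 1 library per age there is no replicate, so no test is given, and the 95% intervals below are exact binomial intervals that cover counting error only. Bins of 1 section are not replicates.

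The stroma of the ovary lies between follicles and corpora lutea and holds fibroblasts, smooth muscle, vessels and immune cells. It also holds steroid-making interstitial cells, which share much of their gene expression with theca. Fibroblasts deposit the fibrillar collagens, a matrix that is known to build up in the ovary with age. Abcb1b encodes a mouse P-glycoprotein, a membrane pump that exports drugs and lipids and is also expressed in steroid-making tissue. Col3a1 encodes the chain of collagen III, and Igfbp7 encodes a secreted protein that is abundant in vessel walls.

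In the RefSeq annotation of GRCm38.p6, the mm10 build of the files, Abcb1b is a protein-coding gene at chr5:8798147-8866314, near the related gene Abcb1a at chr5:8567091-8748575. Col3a1 lies at chr1:45311538-45349706 and Igfbp7 at chr5:77349240-77408045.

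The old library held 2348768 counts on 10267 beads, of which 97.6% fell in kept bins, and the young library held 5158314 counts on 21403 beads. The sections shared 0 bead barcodes. Member bins held a median of 1816 counts (509 to 5168), against 2029 in the other ranked bins and 3950 in the bins left out for Adamts1. Mitochondrial genes made up 1.67% of counts in members, 1.48% in other ranked bins and 0.998% in the Adamts1 bins. In all comparisons of bins, fewer cells of a type and less RNA per cell cannot be told apart.

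**Figure D1:**
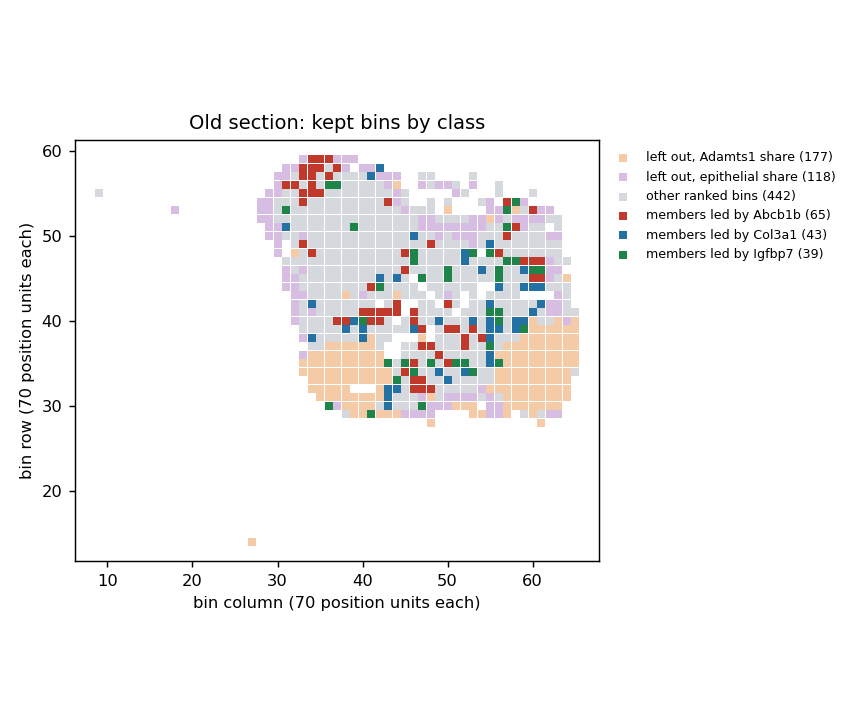
Kept bins of the old section, placed by grid column and row (70 position units each) and coloured by class. Of the 65 members led by Abcb1b, 17 lie in the patch at the top left, and the others lie mostly in the centre and right, as do the members led by Col3a1 and Igfbp7.

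The rule genes were spread unevenly over the members. Abcb1b stood at 3318 CPM (counts per 1000000 counts of the group) in members, 1220 in other ranked bins, 519 in the Adamts1 bins and 837 in the epithelial bins. Col3a1 stood at 2433, 1035, 400 and 1379 CPM in the same order, and Igfbp7 at 2884, 1424, 515 and 1527 CPM. All 3 levels follow from the selection. The lowest member had a summed share of 0.6927% and the highest bin outside 0.6925%, the median member had 0.836%, and the median of the other ranked bins was 0.392%. The cut-off therefore falls in a continuous range, and the members are the upper end of a score.

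How far the selection rests on sampling of counts was measured by assigning beads by alternating barcode order to a pair of sets, ranking bins on one set and reading values from the other. In the beads not used for ranking, Abcb1b in the selected bins was 1.70 times (1.48 to 1.95) its level in other ranked bins for one set and 1.80 times (1.59 to 2.03) for the other. Col3a1 gave 1.55 (1.34 to 1.79) and 1.78 (1.54 to 2.06), and Igfbp7 gave 1.37 (1.19 to 1.56) and 1.48 (1.30 to 1.68). Bins selected on one set coincided with members in 63.3% and 63.5% of cases. The members were ranked on all beads, the selecting set among them, so part of this overlap is built in. How far the selections of the separate sets overlapped is not given here.

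Top bins for Abcb1b overlapped with those for Col3a1 and Igfbp7 slightly less than the share of ranked bins in each set. Of the 147 ranked bins highest for Abcb1b, 30 (20.4%) were also among the 147 highest for Col3a1 and 29 (19.7%) among those highest for Igfbp7, where 24.96% of ranked bins belong to each set. Col3a1 and Igfbp7 shared 58 bins (39.5%), and 7 bins were in all 3 sets. Between the sets of beads, a gene's share per bin correlated with itself at r 0.35 for Abcb1b, 0.21 for Col3a1 and 0.13 for Igfbp7. These values cover the 589 ranked bins of the library, so sampling of sparse counts limits any such overlap. Across the sets, Abcb1b correlated with Col3a1 at r -0.01 and -0.04 and with Igfbp7 at -0.003 and 0.01, values near 0. Col3a1 correlated with Igfbp7 at 0.17 and 0.08. In the bins highest for Abcb1b, Col3a1 was 0.97 times (0.87 to 1.09) and Igfbp7 1.06 times (0.96 to 1.16) the level of the remaining ranked bins. In the bins highest for Col3a1, by contrast, Igfbp7 was 1.57 times (1.44 to 1.72) and Abcb1b 0.93 times (0.84 to 1.03) that level.

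**Figure D2:**
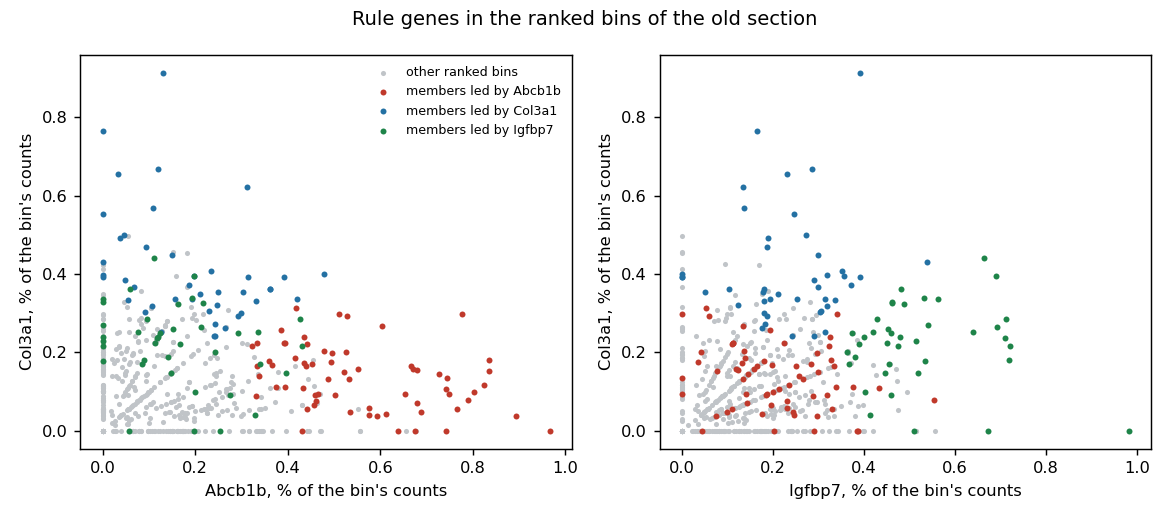
Share of each ranked bin's counts taken by Col3a1 (vertical axis, percent) against Abcb1b (left) and Igfbp7 (right), with other ranked bins in grey and members coloured by leading rule gene. The highest Abcb1b share in a member was 0.966% and the highest Col3a1 share 0.914%, in different bins.

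Each member was assigned to the rule gene whose share stood highest relative to its mean in ranked bins. This grouping was chosen after the values had been seen. It gave 65 members led by Abcb1b, 43 led by Col3a1 and 39 led by Igfbp7. Abcb1b ran from 0.324% to 0.966% (median 0.522%) of counts in the bins it led, and from 0% to 0.479% (median 0.193%) in the bins led by Col3a1. Col3a1 ran from 0.241% to 0.914% (median 0.367%) in its own bins and from 0% to 0.313% (median 0.135%) in the bins led by Abcb1b. These differences in the 3 genes are fixed by the grouping, and only other genes are compared below.

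Across all members, 10118 genes outside the rule had at least 20 counts on either side of the comparison with the other 737 kept bins. Of these, 1230 (12.2%) were at least 1.5-fold higher in members and 2138 (21.1%) at least 1.5-fold lower, with a median ratio of 0.960. The other kept bins held more counts, so a gene reached 20 counts there at a lower share. Against the other ranked bins alone, 8271 genes were measured, of which 697 (8.43%) were higher and 1441 (17.4%) lower, with a median ratio of 0.970.

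Fibroblast and collagen genes were more abundant in members, while other matrix lists differed less and depended on the comparison. The stromal fibroblast list took 2016 CPM in members and 1265 CPM in the other kept bins, a ratio of 1.59 (1.45 to 1.74), and 1.46 (1.33 to 1.61) against other ranked bins. In that second comparison 3 of 12 measured genes were higher by 1.5-fold and 1 lower, with a median of 1.31. Against other kept bins 10 of 13 were higher and 2 lower, with a median of 1.68. Mgp, an inhibitor of calcification, stood at 730 and 318 CPM, a ratio of 2.30 (1.96 to 2.68). Dcn, the collagen-binding proteoglycan decorin, had a ratio of 1.55 (1.19 to 1.99), and Fbln1, which encodes the matrix protein fibulin-1, 1.89 (1.23 to 2.84). Against other ranked bins Dcn had 1.20 (0.92 to 1.57), and with bins thinned to 500 counts it had 0.857. In the thinned setting bins were left out and ranked anew on the thinned counts, which gave 151 members of 603 ranked bins. Its values therefore differ from the main ones in both depth and bins. Cd34 had a ratio of 0.46 (0.30 to 0.68) against other kept bins but 1.49 against other ranked bins.

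Fibrillar collagens other than Col3a1 reached 1.74 times (1.60 to 1.89) their outside share, 3 of 6 being higher and 0 lower. Against other ranked bins it had 1.39 (1.28 to 1.52), with 1 of 6 higher. Col1a1 and Col1a2, the chains of collagen I, stood at 1.97 (1.67 to 2.31) and 1.76 (1.57 to 1.97), and Col5a2 at 1.69 (1.28 to 2.21). Nr2f2, an orphan nuclear receptor of ovarian stroma, had 2.35 (1.81 to 3.03). With bins thinned to 500 counts and members selected anew, Col5a2 had 0.413 and Nr2f2 1.09.

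The other matrix lists stood near 1 against other kept bins and somewhat above 1 against other ranked bins. Basement membrane genes had 1.15 (1.07 to 1.24) and 1.31 (1.21 to 1.42) in that order, with 3 and 5 of 12 genes higher and 0 and 1 lower. The matricellular and proteoglycan list had 0.94 (0.90 to 0.99) against other kept bins and 1.16 (1.10 to 1.22) against other ranked bins. Matrix proteases and their inhibitors had 0.92 (0.86 to 0.98) and 1.22 (1.14 to 1.31), and elastic fibre genes 0.99 (0.88 to 1.11) and 1.16 (1.02 to 1.31). Vcan, the proteoglycan versican, had 0.19 (0.15 to 0.23) against other kept bins but 1.10 (0.84 to 1.42) against ranked bins. Spp1, the secreted protein osteopontin, had 0.21 (0.15 to 0.29) and 1.30 (0.88 to 1.88) in that order.

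Contractile and vessel genes were higher as well. Smooth muscle genes stood at 1.85 times (1.69 to 2.02) their outside share, 8 of 10 being higher and 0 lower, among them Myh11, the smooth muscle myosin heavy chain, at 2.04 (1.67 to 2.47). Actg2, a smooth muscle actin, and Myocd, a coactivator of contractile genes, each had 4.12 (2.20 to 7.52), on 19 counts in members each. All 9 measured genes of the blood endothelium list were higher by 1.5-fold, with a summed ratio of 2.05 (1.78 to 2.37). Its level was 848 CPM in members and 413 CPM outside, and against other ranked bins the ratio was 1.54 (1.33 to 1.79). For smooth muscle genes the ratio to other ranked bins was 1.48 (1.34 to 1.62), with 4 of 9 genes higher and 0 lower. Per bin their median share was 0.121% in members and 0.108% in other ranked bins, and 81 of 147 members lay above the latter. With each bin thinned to 500 counts and members selected anew, the smooth muscle ratio to other kept bins was 1.12. Pericyte genes had 1.62 (1.25 to 2.06), with 3 of 5 higher and 1 lower, but 1.22 (0.94 to 1.58) against other ranked bins, with 0 of 3 higher.

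Immune lists depended on the comparison. Macrophage genes had a ratio of 1.78 (1.60 to 1.97) against other kept bins, with 8 of 13 higher, but 1.12 (1.01 to 1.25) against other ranked bins, with 3 of 12 higher. Ctss, a lysosomal protease, had 2.12 (1.74 to 2.57) and 1.30 in the same order. MHC class I genes kept more of their difference, at 1.44 (1.33 to 1.56) and 1.32 (1.21 to 1.43), and 8 of 11 were higher in the first comparison. Tap1, which loads peptides onto MHC class I, had 2.34 (1.23 to 4.20). MHC class II genes had 1.39 (1.17 to 1.63) and 1.00 (0.84 to 1.18).

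Follicle genes were scarce in members. Granulosa genes stood at 0.44 times (0.40 to 0.49) their outside share, 9 of 11 being lower and 0 higher, and the same 0.44 (0.40 to 0.49) against other ranked bins. Gja1, the gap junction protein that links granulosa cells, had 0.67 (0.57 to 0.80). Oocyte genes had 0.30 (0.20 to 0.44), or 0.61 without the quadrant of low columns and low rows, and the oocyte markers Zp2, Padi6 and Zar1 had 0 counts in members. Proliferation genes had 0.58 (0.49 to 0.69), with 11 of 16 lower and 1 higher.

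Steroid genes changed side with the comparison. The steroid synthesis list took 28130 CPM in members and had a ratio of 1.11 (1.09 to 1.14) against other kept bins, but 0.86 (0.84 to 0.88) against other ranked bins, with 0 genes higher in either. Hsd3b1, which makes progesterone and androstenedione, had 1.38 (1.33 to 1.42) and 0.89 in that order. Cyp11a1, the enzyme of the first step of steroid synthesis, had 1.02 (0.98 to 1.07) and 0.84, and Star, which carries cholesterol into mitochondria, 0.79 (0.71 to 0.89) and 0.82. Hsd17b7, a steroid and cholesterol enzyme, stood at 1027 CPM in other ranked bins and 79.4 CPM in the Adamts1 bins, against 158 CPM in members. Its ratio was 0.27 (0.20 to 0.36) against other kept bins, but 0.87 without the quadrant of low columns and high rows. The luteal list was lower in both, at 0.77 (0.72 to 0.82) and 0.60 (0.56 to 0.64), and 8 of 9 of its genes were lower in the second.

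Among genes that reached 50 counts and 50 CPM, the 15 highest ratios against other kept bins were led by the immunoglobulin light chain gene Igkc at 9.40 (5.97 to 14.95). Its counts sat in few places: 38 of the 49 in members came from 1 bin, and without that bin the ratio was 2.13. Tnfrsf1b, a TNF receptor, and Fcgr4, a receptor for immunoglobulin G, each had 4.07 (2.21 to 7.31). The complement gene C4b had 3.84 (2.22 to 6.49), Cp, the copper carrier ceruloplasmin, 3.32 (2.22 to 4.88), and Slit3, a secreted guidance protein, 3.27 (2.16 to 4.88). Pnpla7, a lysophospholipase, had 3.86, and the endothelial gene Ecscr 3.73. The others were Adgrv1 at 3.66, Afap1l2 at 3.29, Arl4c at 3.27, Gimap4 at 3.27 and Snai2, a transcription factor of mesenchymal cells, at 3.26. All but Igkc, Cp and Slit3 rested on fewer than 30 counts in members. In bins ranked on one set of beads and read in the other, Actg2 had 0.80, Pnpla7 0.84 and Fcgr4 1.06, so the order of these genes is not firm.

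Several of the 10 lowest genes stood highest in the bins left out for Adamts1. Nr5a2, a nuclear receptor of granulosa and luteal cells, stood at 60.6 CPM in members, 243 in other ranked bins and 1034 in the Adamts1 bins, a ratio of 0.11 (0.07 to 0.18) against all other kept bins. Prkg2, a cGMP-dependent kinase, had 6.73, 17.3 and 336 CPM, and the apolipoprotein gene Apoa1 20.2, 55.7 and 486 CPM. Rps6ka2, a ribosomal S6 kinase, had 0 counts in members against 119 elsewhere, which places it at least 5.91-fold lower when 3 counts stand for 0. Apoa4, Frat2, Cldn18, Emx2, Bhmt and Lrp8 had ratios from 0.06 to 0.13, on 1 to 3 counts in members.

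Across the 589 ranked bins, each thinned to 500 counts, the genes whose share followed the summed share of the rule genes most closely were Sparcl1 (Pearson r 0.19), Tmem178 (0.14), Col1a2 (0.13), Cald1 (0.13) and Mgp (0.12), of 358 compared. These values are weak, come from bins of 1 library with a common depth, and are given as a description.

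When members were divided by leading gene, stromal and steroid genes differed between the groups on the beads that made the grouping. With grouping and values on separate sets of beads, given below, the differences were in part smaller or mixed. Against the other ranked bins, members led by Abcb1b had 996 of 8268 genes higher (12%) and 2119 lower (25.6%). Members led by Col3a1 had 1359 higher (16.4%) and 2309 lower (27.9%), and members led by Igfbp7 had 1426 of 8270 higher (17.2%) and 2496 lower (30.2%). Median ratios over all genes were 0.927, 0.951 and 0.937. Groups of fewer bins hold fewer counts, which widens the spread of ratios, so these totals do not rank the groups.

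**Figure D3:**
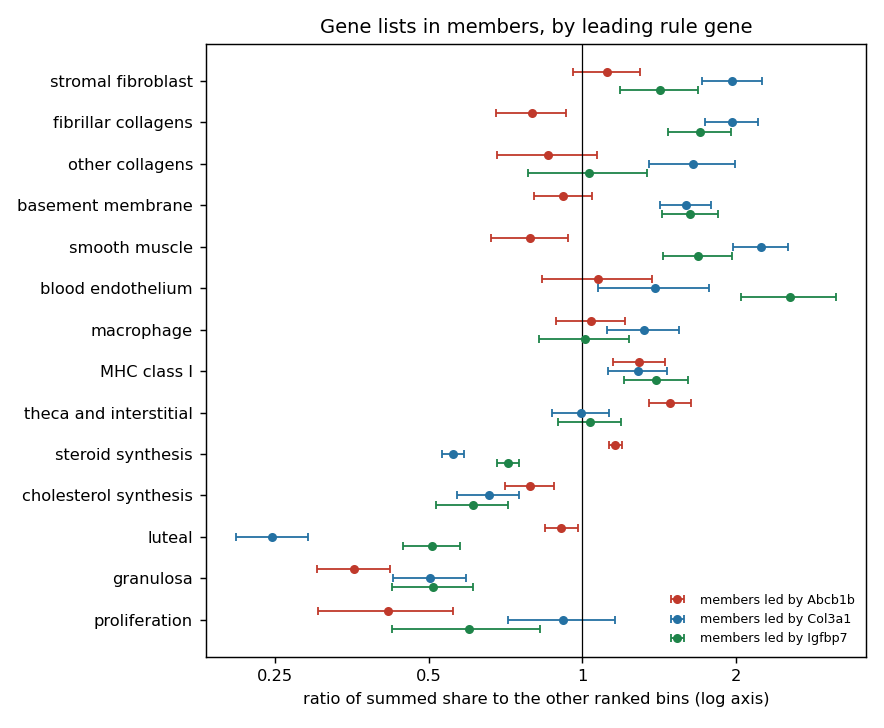
Ratio of each gene list's summed share in members led by Abcb1b, Col3a1 or Igfbp7 to that in the other 442 ranked bins (log axis), with 95% counting intervals. Smooth muscle genes stand at 0.79, 2.24 and 1.69 in the 3 groups, and luteal genes at 0.91, 0.25 and 0.51.

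In members led by Abcb1b, matrix and muscle genes stood near or below their level in other ranked bins. Their stromal fibroblast ratio was 1.12 (0.96 to 1.30), with 1 of 12 genes higher and 3 lower. Fibrillar collagens stood at 0.80 (0.68 to 0.93), with 0 of 6 higher, and smooth muscle genes at 0.79 (0.66 to 0.94). Mgp had 1.26 (0.95 to 1.64), Col1a2 0.85 (0.69 to 1.04) and Myh11 0.56 (0.36 to 0.85). Per bin, the fibroblast list ran from 0% to 0.485% of counts (median 0.119%), beside a median of 0.120% in other ranked bins, and 32 of the 65 bins lay above that median.

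The same bins held more of the theca and interstitial genes, at 1.49 (1.35 to 1.63) times the other ranked bins, with 3 of 9 genes higher and 1 lower. Aldh1a1, an enzyme that makes retinoic acid, stood at 1305 CPM there, a ratio of 1.69 (1.42 to 1.99). Mgarp, a mitochondrial protein of steroid-making cells, stood at 1935 CPM, a ratio of 1.67 (1.45 to 1.91), and Adh1, an alcohol and retinol dehydrogenase, at 319 CPM, a ratio of 3.07 (2.09 to 4.44). The steroid synthesis list had 1.16 (1.13 to 1.20), with Hsd3b1 at 1.27 (1.22 to 1.33) and Cyp11a1 at 1.09 (1.04 to 1.15). Its share ran from 1.10% to 5.87% of counts (median 3.80%), above the other ranked bins' median of 2.92% in 57 of 65 bins. MHC class I genes had 1.29 (1.15 to 1.45), while granulosa genes had 0.36 (0.30 to 0.42) and proliferation genes 0.42 (0.30 to 0.56).

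Genes with the highest ratios in these bins were Pnpla7 at 4.39 (2.37 to 7.89) and Rerg, a small GTPase gene, at 3.62 (1.92 to 6.57). Next came Cpxm2, a carboxypeptidase-like gene, at 3.60 (2.59 to 4.96) and Cp at 3.15 (1.96 to 4.93). These genes were picked and read on the same beads. In bins ranked on one set of beads and read in the other, Pnpla7 over all members had 0.84 against other kept bins. Nuclear RNAs were also higher: Malat1 took 33909 CPM and Neat1 5548 CPM in members led by Abcb1b, against 25270 and 3100 CPM in other ranked bins. Members led by Col3a1 had 22124 and 2405 CPM. The mitochondrial share was 1.93%, against 1.48% in other ranked bins. The part of these measures in the gene ratios was not tested. Abcb1a, the related gene near Abcb1b on the same chromosome, had 1.57 (0.77 to 2.93). How reads that match both genes were treated is not given in the sources used here.

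Members led by Col3a1 held the fibroblast, collagen and muscle genes. The stromal fibroblast ratio was 1.97 (1.72 to 2.25), with 7 of 12 genes higher and 0 lower, fibrillar collagens stood at 1.96 (1.74 to 2.21) and smooth muscle genes at 2.24 (1.98 to 2.54). Mgp had 2.65 (2.11 to 3.31), Col1a2 2.01 (1.71 to 2.35), Sparcl1 2.48 (2.05 to 2.98) and Myh11 2.34 (1.80 to 3.00). Slit3 had 5.04 (2.86 to 8.61), and Lox, the enzyme that crosslinks collagen and elastin, 3.63 (2.21 to 5.77). Fibrillar collagens took a median of 0.281% of counts per bin, against 0.135% in other ranked bins, and 34 of 43 bins lay above that median.

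Steroid and luteal genes were low in the same bins. The luteal list stood at 0.25 (0.21 to 0.29), with 8 of 9 genes lower, among them Sfrp4, a secreted Wnt antagonist, at 0.21 (0.16 to 0.28) and Ptgfr, the receptor for the luteolytic prostaglandin, at 0.14 (0.08 to 0.24). The steroid synthesis list stood at 0.56 (0.53 to 0.59), and 6 of 43 bins lay above the median of other ranked bins. Macrophage genes had 1.32 (1.12 to 1.55).

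Members led by Igfbp7 held vessel genes, as read on the beads that made the grouping. Values from the other set of beads are not given for this group. The blood endothelium list stood at 2.55 (2.05 to 3.15), with 7 of 9 genes higher and 0 lower. Egfl7, a secreted endothelial protein, had 2.33 (1.51 to 3.46), Esam, an endothelial adhesion molecule, 3.12 (1.76 to 5.25), and Flt1, a VEGF receptor, 2.76 (1.35 to 5.18). Igfbp3, a related IGF-binding protein, had 7.57 (4.23 to 13.18), but 8 of its 21 counts there came from 1 bin. Over all members its ratio of 1.75 became 1.19 without that bin. Plxnd1, a semaphorin receptor of endothelium, had 3.74 (2.39 to 5.67). The endothelial share had a median of 0.118% per bin, against 0.035% in other ranked bins, and 31 of 39 bins lay above that median. Fibrillar collagens stood at 1.70 (1.47 to 1.96), basement membrane genes at 1.63 (1.43 to 1.85) and luteal genes at 0.51 (0.45 to 0.58).

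Set directly against members led by Abcb1b, those led by Col3a1 had 1.76 times (1.46 to 2.13) the stromal fibroblast share, 2.47 times (2.05 to 2.98) the fibrillar collagen share and 2.84 times (2.33 to 3.47) the smooth muscle share. Their steroid synthesis share was 0.48 times (0.46 to 0.51) and their luteal share 0.27 times (0.23 to 0.32) that of the members led by Abcb1b. Members led by Igfbp7 had 1.84 times (1.35 to 2.52) the endothelial share of those led by Col3a1 and 2.38 times (1.75 to 3.24) that of those led by Abcb1b. Against those led by Col3a1, they had 0.87 times (0.73 to 1.03) the fibrillar collagen share and 0.72 times (0.58 to 0.89) the stromal fibroblast share. This grouping was made and read on the same beads. In it fibroblast, collagen and muscle genes were above other ranked bins where Col3a1 led. Where Abcb1b led, collagen and muscle genes were below other ranked bins, and the fibroblast interval included 1.

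Other groupings gave smaller or mixed differences in part. In the 147 ranked bins highest for Abcb1b alone, stromal fibroblast genes had 1.01 (0.90 to 1.12), fibrillar collagens 0.86 (0.77 to 0.94), theca and interstitial genes 1.60 (1.49 to 1.71) and steroid synthesis genes 1.20 (1.18 to 1.23). With grouping on one set of beads and values from the other, theca and interstitial genes in bins led by Abcb1b had 1.71 (1.51 to 1.95) and 1.26 (1.08 to 1.47). Steroid synthesis genes then had only 1.05 (1.00 to 1.10) and 1.03 (0.98 to 1.08), and stromal fibroblast genes 1.08 (0.86 to 1.33) and 1.53 (1.23 to 1.88). In bins led by Col3a1, luteal genes had 0.41 (0.34 to 0.49) and 0.51 (0.43 to 0.59) in the same pair of readings, and smooth muscle genes 1.28 (1.02 to 1.59) and 2.45 (2.08 to 2.88).

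Members lay together on the section. Of the ranked bins that adjoined a member, on average 40.5% were members, against 19.8% of those that adjoined another ranked bin. The 147 members formed 32 patches of touching bins, 16 of them single bins, and 6 patches of at least 10 bins held 98 members (66.7%), the largest with 20. Bins adjoining a member led by Abcb1b were themselves led by Abcb1b in 32.3% of cases and by Col3a1 in 4.83%. Members touched a bin left out for Adamts1 in 20.4% of cases, other ranked bins in 15.8%. Members lay at the edge of the kept area in 26.5% of cases, other ranked bins in 27.8%.

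**Figure D4:**
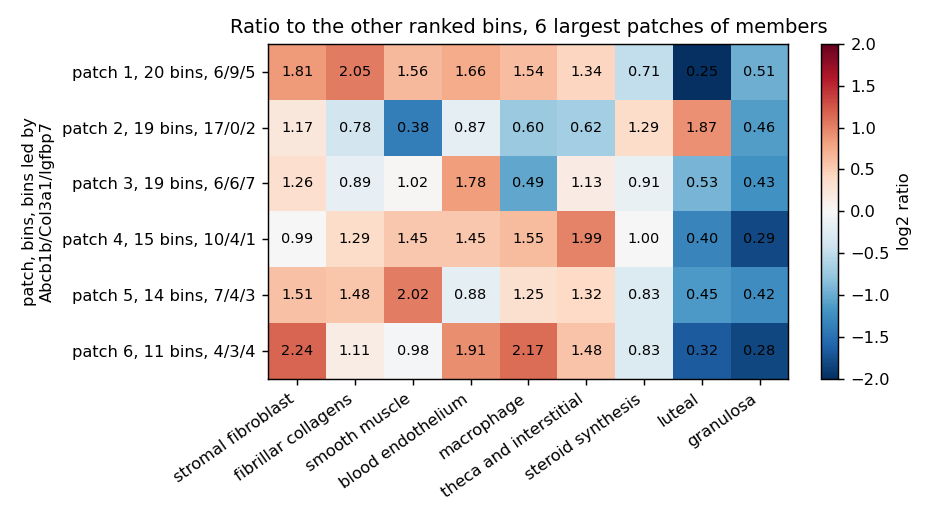
Ratio of each gene list's share in the 6 largest patches of members to that in the other ranked bins, with the ratio printed in each cell and coloured on a log2 scale. Of the 6 patches, patch 2 has the only luteal ratio above 1, 1.87, and patch 4 the highest theca and interstitial ratio, 1.99.

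The patches rich in Abcb1b were of different kinds. In the patch of 19 bins at low column and high row numbers, 17 bins were led by Abcb1b and 0 by Col3a1, and Abcb1b reached 6003 CPM. Its luteal ratio was 1.87 (1.70 to 2.06), with Sfrp4 at 5947 CPM, Ptgfr at 2198 CPM and Scarb1, the receptor that takes up cholesterol from lipoproteins, at 2142 CPM. Smooth muscle genes stood at 0.38 (0.23 to 0.60) and theca and interstitial genes at 0.62 (0.47 to 0.80). Malat1 stood at 43430 CPM in this patch, and its part in the ratios was not tested. In the patch of 15 bins near the middle, 10 led by Abcb1b, Abcb1b reached 4584 CPM, and the order was turned: luteal genes stood at 0.40 (0.31 to 0.51) and theca and interstitial genes at 1.99 (1.67 to 2.35). Aldh1a1 was at 2122 CPM in the middle patch and 451 CPM in the luteal one, and Mgarp at 2501 and 705 CPM.

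The other patches were mixed. The largest, with 9 of 20 bins led by Col3a1, had fibrillar collagens at 2.05 (1.71 to 2.43) and luteal genes at 0.25 (0.19 to 0.32). A patch of 14 bins had the highest smooth muscle ratio, 2.02 (1.64 to 2.47). A patch of 11 bins had the highest stromal fibroblast ratio, 2.24 (1.69 to 2.93), and the highest macrophage ratio, 2.17 (1.62 to 2.85).

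The same rule applied to the young section gave 268 bins of 1073 ranked and 1306 kept. Adamts1 was at 0 counts in most young bins, so 103 bins could be left out for it, 7.89% of kept bins against 20.0% in the old section. These bins belong to the other kept bins, so the comparison bins of the sections differ in make-up. Of 12043 genes, 1387 (11.5%) were higher and 2556 (21.2%) lower in the selected young bins. Of the 1198 genes higher in old members and measured in the young section, 60.3% had a ratio above 1 there, against 45.9% of all 9908 genes measured in both. A ratio of at least 1.5 was reached by 24.5% of them, against 10.97% of all. In the young ovary the bins highest for Abcb1b included 33.96% of those highest for Col3a1 and 29.5% of those highest for Igfbp7, where the old section had 20.4% and 19.7%.

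**Figure D5:**
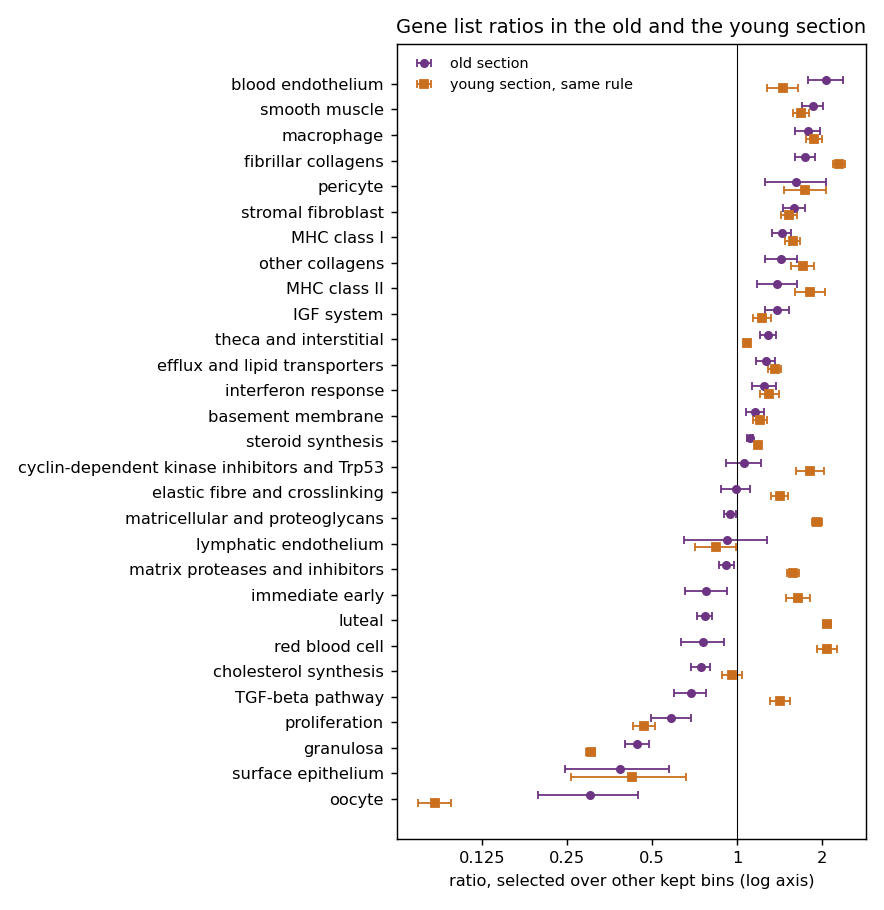
Ratio of each gene list's share in the selected bins to that in the other kept bins of the same section (log axis), for the old (circles) and the young section (squares), with 95% counting intervals, for 29 lists with at least 3 genes measured per section. Luteal genes stand at 0.77 (old) and 2.08 (young), while smooth muscle genes stand at 1.85 and 1.68.

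Several lists lay on the same side of 1 in both sections, and some of them differed in size by more than their counting intervals. Stromal fibroblast genes had 1.59 when old and 1.53 (1.43 to 1.63) when young, smooth muscle genes 1.85 and 1.68 (1.58 to 1.79), and macrophage genes 1.78 and 1.88 (1.76 to 2.00). Blood endothelium genes had 2.05 and 1.45 (1.28 to 1.64), fibrillar collagens 1.74 and 2.29 (2.18 to 2.41), and granulosa genes 0.44 and 0.30 (0.29 to 0.32). Luteal genes were on opposite sides, at 0.77 when old and 2.08 (2.01 to 2.15) when young, with Sfrp4 at 0.88 and 2.91 and Ptgfr at 0.88 and 2.43. Age, animal and section cannot be told apart here.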

How the data were processed

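Each section's gene-by-bead table holds whole-number counts, deposited by the authors, beside a table of bead positions. Per the submitters' processing notes the build is mm10; neither the aligner nor whether counts are reads or molecules is given in the sources used here. Per the labels, sections were cut for Slide-seq from frozen ovaries. Bins, shares and CPM were computed with Python 3.11.15, numpy 2.4.6, scipy 1.17.1 and pandas 2.3.3, and the ratio code was tested on simulated data. Genes with at least 20 counts on either side were measured, and 1.5-fold marked higher or lower. Named genes needed 50 counts and 50 CPM (100 CPM within groups by leading gene): the 15 highest and 10 lowest ratios, up to 8 per list, and the 5 best correlated. Predicted and clone-named genes were not named. The members and lists were chosen with earlier results of these data known. The grouping by leading gene, its naming limit and the swap of bead sets were added after the data were seen. Alternatives varied bin size, grid, depth, cut-offs, rule genes, comparison bins and section quadrants. Some genes, and lists that rest on them, are not reported here.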

Additional observations from a re-analysis of the deposited data

Results flagged for a closer look

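For 6 gene lists the ratio of members to other kept bins was below 1 in the old section and above 1 in the young section under the same rule, with counting intervals on opposite sides of 1. They were the luteal list (0.768 old, 2.08 young), the red blood cell list (0.757 and 2.08), the matricellular list (0.941 and 1.91), the immediate early list (0.777 and 1.65), the matrix protease list (0.916 and 1.58) and the TGF-beta pathway list (0.683 and 1.42). With 1 section per age these differences were not tested. In the TGF-beta list 1 gene carried much of the old value: Ltbp1, which holds latent TGF-beta in the matrix, had a ratio of 0.30 (old) and 1.92 (young). Against other ranked bins the old matricellular ratio was 1.16 and the matrix protease ratio 1.22, both above 1, and the immediate early ratio was 0.98 (0.81 to 1.18). The immediate early list also had 1.08 with bins thinned to 500 counts. The red blood cell list had 1.20 when bins were ranked without Abcb1b, and the luteal list 1.03 when they were ranked without Col3a1.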

How the results depend on the processing

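No paired analysis was possible because each age has 1 library and the libraries share no replicate number. In the main setting 1230 genes were higher and 2138 lower, 12.2% and 21.1% of 10118 measured. Thinning bins to 500 counts, with members selected anew, gave 417 and 1065, or 9.62% and 24.6% of 4336. When 50 counts were needed, 599 and 1285 were called, 8.29% and 17.8% of 7227. When 5 were needed, 2032 and 3372 were called, 15.4% and 25.6% of 13188. The totals moved in part because these settings change how many genes are measured. Against other ranked bins only, 697 of 8271 (8.43%) were higher. The stromal fibroblast ratio of 1.59 became 1.39 with bins of 50 units, 1.37 with equal weights, 1.25 thinned, 1.90, 1.25 and 1.37 when ranked without Abcb1b, Col3a1 and Igfbp7, and 1.33 without the quadrant of high columns and low rows. The fibrillar collagen ratio of 1.74 became 1.51 with bins of 100 units, 1.60 for the top 15%, 1.39 against other ranked bins, 1.47 with equal weights, 1.29 thinned, 2.23, 1.24 and 1.45 without the 3 rule genes in the same order, and 1.38 and 1.98 without the quadrants of high columns and low or high rows. The steroid synthesis ratio of 1.11 became 1.17 and 1.14 with bins of 50 and 100 units, 1.23 for the top 15%, 0.86 against other ranked bins, 0.84, 1.36 and 1.31 without the 3 rule genes, 1.33 without the quadrant of low columns and high rows, and 1.06 and 1.14 without those of high columns and low or high rows. The share of higher genes above 1 in the young section, 60.3%, became 56.5% with bins of 100 units, and 52.5% and 64.1% for the top 15% and 35%. It became 65.5% with no bin left out, 50.7% with equal weights and 46.3% thinned. It was 56.6% without Abcb1b, 55.0% with the other set of beads and 66.6% at 50 counts. Over all genes measured in both sections the main setting had 45.9%. That background is not given for the other settings, so their shares, the thinned one among them, cannot be set against it.

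Values past 1.5-fold that crossed 1 were the periovulatory list (1.04 against other ranked bins), the B and plasma list (0.396 for the top 15%, 0.569 without Igfbp7), Igkc (0.462 and 0.718 in the same settings), Cd34 (1.49 against other ranked bins), Snai2 (0.933 without Col3a1), Esam (0.968 without Igfbp7) and Fcgr4 (0.832 with the grid shifted). Thinning gave 0.857 for Dcn, 0.413 for Col5a2, 0.994 for Aldh1a1, 0.809 for Tnfrsf1b, 1.52 for Bhmt and 0.899 for Abcb1a. Values from the other set of beads gave 0.803 for Actg2 and 0.836 for Pnpla7, and with the sets swapped 1.30 for Loxl1 and 0.957 for Abcb1a. Loxl1 also gave 1.02 with bins of 100 units, 1.56 with the grid shifted, 1.03 with no bin left out and 1.45 without Abcb1b. Values nearer to 1 crossed it too, among them theca and interstitial genes (0.978), Mgarp (0.867) and red blood cell genes (1.20) without Abcb1b, luteal genes (1.03), Ptgfr (1.39) and Sfrp4 (1.22) without Col3a1, and immediate early genes (1.08) thinned. The causes were not tested. Depth limits genes with few counts, and all intervals leave out the spread between animals.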

Other observations

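Immunoglobulin genes were gathered in a few bins of the old section. Kept bins held 126 counts of Igkc, Igha, Ighm and Jchain together, and 59 of them (46.8%) came from 1 member bin led by Igfbp7, which lies in the patch of 19 bins that was rich in Abcb1b and luteal genes. A bin left out for epithelial genes held 23, and a member led by Col3a1 held 9. The B and plasma cell list had a ratio of 8.60 (6.00 to 12.4) in members, and that value rests on these bins.

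Cholesterol synthesis genes summed to 0.74 times (0.69 to 0.80) their outside share, with 4 of 16 lower by 1.5-fold and 0 higher, a share of lower genes close to the 21.1% of all genes measured. Within the transforming growth factor list, Tgfbr3, the co-receptor betaglycan, had a ratio of 2.07 (1.50 to 2.83).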
